A study of Homo sapiens with 7 samples.

Results

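The genes examined were ST8SIA1, the sialyltransferase that makes the ganglioside GD3, and 9 genes of ganglioside synthesis or of related sialic acid transfer, namely ST8SIA2, ST8SIA4, ST8SIA5, ST3GAL5, B4GALNT1, B3GALT4, UGCG, ST6GALNAC3 and ST6GALNAC5. They are 10 of the 34809 gene names on the array, and all probes bearing one of these names were taken, 13 of 42405 non-control probes. ST8SIA1 was picked because a probe of it was lower in HOTAIR cells in the same data, so the difference of that probe is given as a description with no test. Gene expression was profiled in ACHN, a human renal cell adenocarcinoma line, to find genes that the long noncoding RNA HOTAIR regulates. ACHN-HOTAIR cells (3 samples, HOTAIR 1 to HOTAIR 3) carried HOTAIR cDNA in the retroviral vector pBabe-hygro, and ACHN-EV cells (4 samples, EV 1 to EV 4) carried the empty vector. Both groups were therefore infected with retrovirus and share the parental line. Whether the samples of a group were separate infections or cultures is not stated, so the p-values below measure the spread between these samples, which may be technical.

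Gangliosides are glycosphingolipids with sialic acid that lie mainly in the outer leaflet of the plasma membrane. UGCG adds glucose to ceramide, a galactosyltransferase extends the product to lactosylceramide, and ST3GAL5 (GM3 synthase) adds the first sialic acid. ST8SIA1 adds a further sialic acid to GM3 and so opens the b-series, and ST8SIA5 adds more, while B4GALNT1 (GM2/GD2 synthase) and B3GALT4 (GM1/GD1b synthase) lengthen the chain. GD3 and GD2 are known from melanoma and neuroblastoma, and kidney tissue and renal carcinoma are known for GM3 and other simple gangliosides.

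ST8SIA1 had a pair of probes on the array, and their sequences are shown because they gave different results. Each probe is named by the base of its transcript at which the array annotation starts it. The probe at base 340 lies on hg19 at chr12:22487249-22487308 and the probe at base 1908 at chr12:22354071-22354130, both on the minus strand and 133 kb apart. The probes of ST8SIA5 (chr18:44259199-44259258, minus strand) and ST3GAL5 (chr2:86067159-86067218, minus strand) are shown beside them as the other tested members whose groups did not overlap. The first 30 of the 60 bases of each are printed from 5′ to 3′, with CG dinucleotides in capitals.
ST8SIA1 base 340: CGaagaagCGtgCGtgCGtttgcaagtaag
ST8SIA1 base 1908: ggggtaaaagtgttgctgattgtcaacaca
ST8SIA5 base 2445: atcctgCGttagctcttttgatgagaagga
ST3GAL5 base 1434: tttgacagccttcttgatgtatttctccat
The ST8SIA1 probe at base 340 has a GC content of 55% and 4 CG dinucleotides, and the probe at base 1908 has 35% and 0. The median of the tested probes is 43.3% with 1 CG dinucleotide, and 4.14% of them have 4 or more. The array annotation ties 3 transcript accessions to both ST8SIA1 probes and 1 further accession to each of them alone. The RefSeq table of assembly GRCh38.p14 lists 2 ST8SIA1 transcripts. Whether either probe lies in coding or untranslated sequence was not determined.

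The intensity at the 75th percentile, to which every array was scaled, was 523 to 649 in EV and 552 to 640 in HOTAIR, and 48.7% to 52.1% of the probes were well above background. No spot was saturated. All values below are log2 signals relative to that percentile, so a value of 0 is a signal at the percentile. The HOTAIR probe lay between -7.07 and -6.29 in EV, well above background on 0 of 4 arrays, and at -3.12, -3.24 and -2.58 in HOTAIR, well above background on 3 of 3. Of 14 probes for markers of a renal epithelial line, 10 were well above background on all arrays (PAX2, PAX8, LHX1, KRT8, KRT18, KRT19, EPCAM and VIM). The probes of CDH1, CDH6 and CA9 and the other PAX2 probe were not on any. Among the 10 probes above background, the groups did not overlap for KRT19 (log2 difference -0.41, 95% interval -0.71 to -0.11, limma adjusted p = 0.602) and EPCAM (-0.23, 95% interval -0.47 to 0.01, limma adjusted p = 0.881), both lower in HOTAIR. Over all tested probes 7.70% did not overlap, 3.50% being lower in HOTAIR. The part of KRT19 and EPCAM in the results below was not tested. Of 19 probes for markers of blood, endothelium and stroma, 12 were above background on no array. CD68 (mean 0.42 in EV and 0.43 in HOTAIR) and CD14 (-4.09 and -3.97) were above background on all arrays, the others on some. The levels summed over the list, in multiples of the 75th percentile, were 1.48 to 1.67 in EV and 1.54 to 1.69 in HOTAIR. CD68 was the brightest probe in these sums. Of 10 probes for neural and melanocyte markers, 8 were above background on no array and TUBB3 and PMEL on all, with sums of 22.8 to 32.5 in EV and 29.2 to 31.4 in HOTAIR. TUBB3 (mean 4.76 in EV and 4.91 in HOTAIR) was the brightest probe in these sums, far above PMEL (-2.46 and -2.6). EV 2 stood apart on the first principal component (score 74, other arrays -29.4 to 21.1, 51.8% of the variance). All EV arrays lay in 1 row of the slide and all HOTAIR arrays in the other, so group and position on the slide cannot be told apart.

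**Figure D1:**
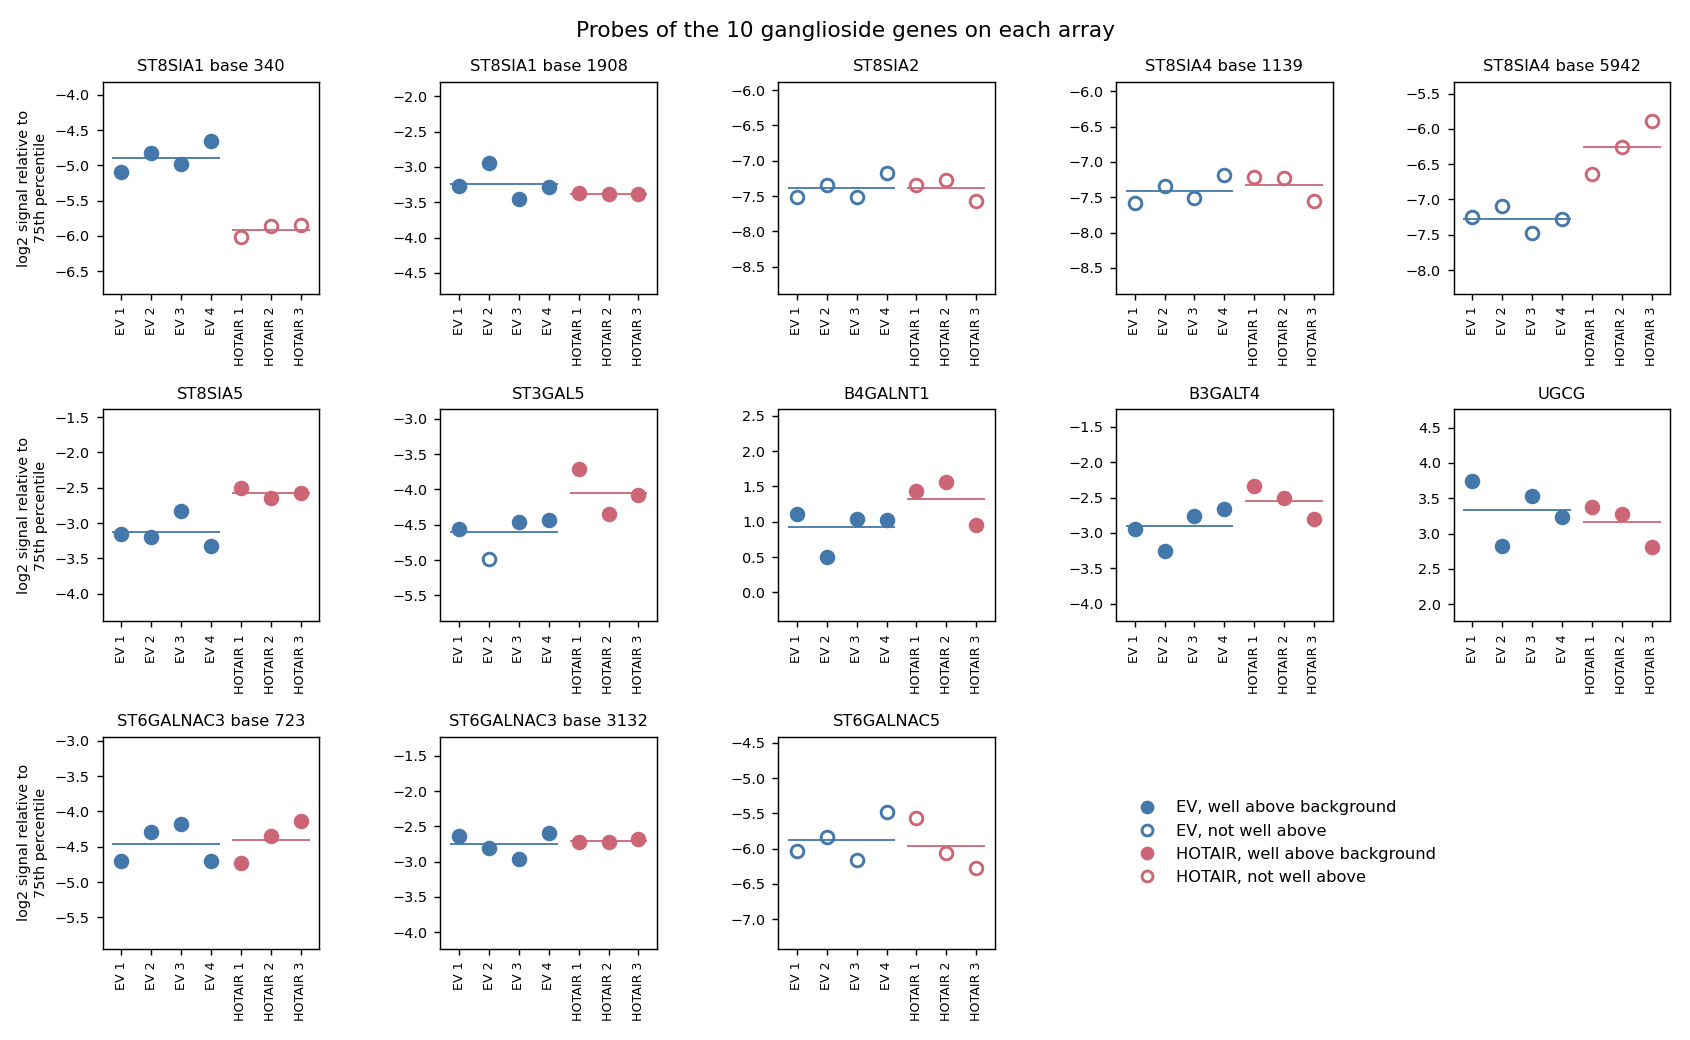
Log2 signal after scaling to the 75th percentile (y axis, with its own range in each panel but the same height) for the 13 probes of the 10 genes on each of the 7 arrays (x axis). Filled points are well above background, open points are not, and lines are group means. ST8SIA1 base 340 was filled on the 4 EV arrays and open on the 3 HOTAIR arrays, whereas ST8SIA1 base 1908 was filled on all 7.

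Both ST8SIA1 probes were above background in ACHN-EV cells. At base 340 the signal was lower in ACHN-HOTAIR cells, and at base 1908 the groups overlapped. The log2 signal at base 340 was -5.09, -4.83, -4.98 and -4.65 on EV 1 to EV 4 and -6.01, -5.86 and -5.85 on HOTAIR 1 to HOTAIR 3. Every HOTAIR array lay below every EV array, and the probe was well above background on 4 of 4 EV arrays and 0 of 3 HOTAIR arrays. The means were -4.89 ± 0.189 (SD, n = 4) in EV and -5.91 ± 0.0868 (SD, n = 3) in HOTAIR, a difference of -1.02 between the measured means. The HOTAIR signals were not well above background. Raising each of them to at least its array's dimmest signal well above background left their mean at -5.91. The 2.02-fold higher signal in EV is therefore the ratio of the measured means and not a lower bound. With normexp background correction, which here adds an offset of 50, the same ratio was 1.15-fold and the log2 difference -0.21. That offset is larger than the processed intensities of base 340 on every array and so shrinks any ratio between them. The normexp value therefore cannot show whether the 2.02-fold ratio holds. This probe has 1 spot on each array, with processed intensities of 18.0 to 20.7 in EV and 9.51 to 9.96 in HOTAIR. The software's error of these intensities was 3.70 to 4.26 in EV and 3.18 to 3.94 in HOTAIR. Whether the difference at base 340 reflects a change in transcript was not tested. If it does, fewer cells with the transcript and less transcript per cell cannot be told apart in a bulk culture.

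The log2 signal at base 1908 was -3.27, -2.95, -3.46 and -3.29 on the EV arrays and -3.37, -3.39 and -3.39 on the HOTAIR arrays. The groups overlapped, since HOTAIR lay within the range of EV. This probe was well above background on all 7 arrays, has 2 spots per array and had processed intensities of 52.2 to 68.6 in EV and 52.7 to 62.0 in HOTAIR. The log2 difference was -0.14 (SE 0.136, 95% interval -0.46 to 0.17, limma adjusted p = 0.993). Without EV 2 it was -0.05. The gap between the probes on the same array, base 340 minus base 1908, was -1.82, -1.88, -1.53 and -1.36 in EV and -2.63, -2.47 and -2.46 in HOTAIR. The HOTAIR gaps rest on base 340 signals that were not well above background. The measured gaps had means of -1.65 ± 0.245 (SD, n = 4) in EV and of -2.52 ± 0.0973 (SD, n = 3) in HOTAIR. Because base 340 was chosen for its low HOTAIR values, which enter these gaps, they are a description and add nothing independent.

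The 9 member probes that were well above background on all arrays of at least 1 group were tested, and they stand for 7 of the 10 genes. The other 4 probes, those of ST8SIA2, ST8SIA4 and ST6GALNAC5, were well above background on no array. ST8SIA1 base 340 was chosen on this contrast and passed the filter only through the EV arrays, so its place among the called probes is not counted. Of the other 8 tested probes, 0 passed the adjusted p of 0.05 by limma, where 0.167% of all 20419 tested probes did (0.132% higher and 0.0343% lower in HOTAIR). An unadjusted p under 0.05 was found for 2 of these 8, ST8SIA5 and ST3GAL5, against 5.85% of all tested probes. The groups did not overlap for the same 2 probes, both higher in HOTAIR, where 7.70% of all tested probes did not overlap (4.20% higher and 3.50% lower). ST3GAL5 passed the filter only through the HOTAIR arrays, so its count is no support for a difference. The median log2 difference of the 9 probes, base 340 included, was 0.06, and that of all tested probes was 0.01.

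**Figure D2:**
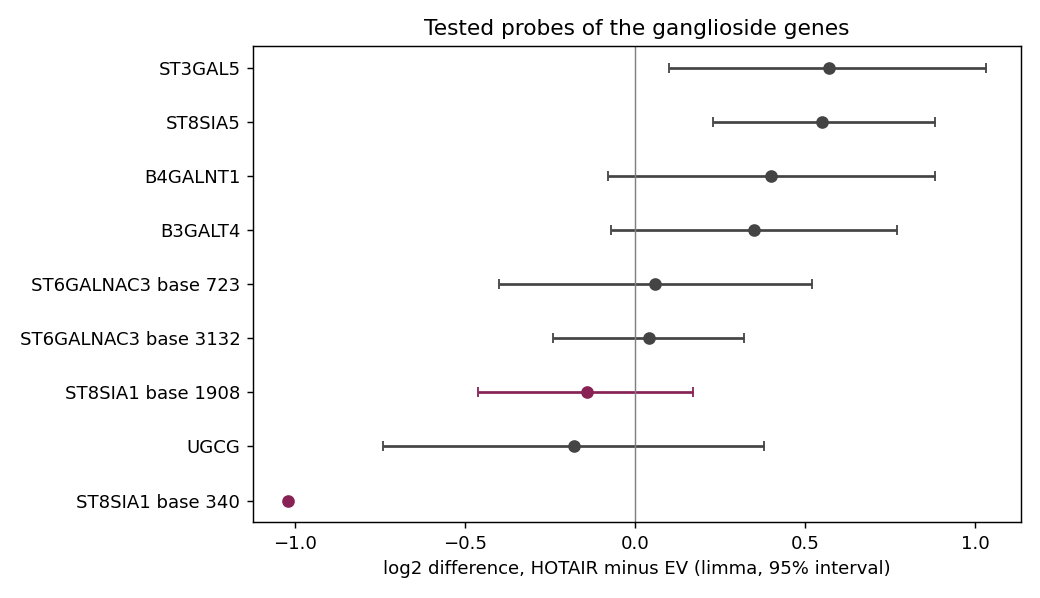
Log2 difference, HOTAIR minus EV (x axis), for the 9 tested probes of the ganglioside genes (y axis), from limma over 4 EV and 3 HOTAIR arrays. Bars are 95% intervals, and ST8SIA1 base 340, chosen on this contrast, is drawn without one at -1.02. The intervals of ST3GAL5 and ST8SIA5 lie above 0 before adjustment, and those of the other 6 probes include 0.

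ST8SIA5, the sialyltransferase that adds further sialic acids to gangliosides such as GD3 and GD1a, had log2 signals of -3.16, -3.20, -2.83 and -3.33 in EV and -2.50, -2.65 and -2.57 in HOTAIR. The lowest HOTAIR array exceeded the highest EV array, and all 7 arrays were well above background. The log2 difference was 0.55 (SE 0.139, 95% interval 0.23 to 0.88, a 1.47-fold ratio), and it did not pass the threshold over all probes (limma adjusted p = 0.375). With normexp background correction it was 0.22, and under the other settings it lay between 0.47 and 0.65. The normexp offset of 50 is large against this probe's processed intensities of 52.1 to 113, and it shrinks the difference.

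The polysialyltransferases ST8SIA2 and ST8SIA4 build long sialic acid chains on NCAM and other proteins rather than on gangliosides. The ST8SIA2 probe lay between -7.52 and -7.18 in EV and between -7.57 and -7.27 in HOTAIR, and on all 7 arrays the software had put a value from its error model in place of a signal too low to use. The ST8SIA4 probe at base 1139 had such replaced values on all 7 arrays as well, between -7.58 and -7.19 in EV and between -7.55 and -7.21 in HOTAIR. These values have no order and are given only to show that neither transcript was measured above background. The ST8SIA4 probe at base 5942 read -7.25, -7.09, -7.48 and -7.28 in EV and -6.64, -6.26 and -5.89 in HOTAIR, again well above background on no array. Its groups did not overlap, but 4 of the 7 arrays hold a replaced value, and its 2 spots on 1 array differed by a median of 0.441 and by up to 0.882 on the log2 scale. No fold is given for it.

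UGCG, which makes glucosylceramide and so starts the pathway (probe at chr9:114691888-114691947, plus strand), was well above background on every array, at 3.75, 2.83, 3.53 and 3.23 in EV and at 3.37, 3.28 and 2.81 in HOTAIR. The groups overlapped, with EV 2 and HOTAIR 3 the lowest of their groups. The log2 difference was -0.18 (95% interval -0.74 to 0.38, limma adjusted p = 0.993). It depended on single arrays, with -0.04 without EV 1, -0.11 without EV 3, -0.01 without HOTAIR 3, -0.35 without EV 2 and -0.29 without HOTAIR 1.

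ST3GAL5 makes GM3, on which ST8SIA1 acts. Its log2 signal was -4.56, -4.98, -4.46 and -4.44 in EV and -3.71, -4.35 and -4.08 in HOTAIR. The groups did not overlap, with all of HOTAIR above EV, and EV 2 was the only array on which the probe was not well above background. The log2 difference was 0.57 (SE 0.198, 95% interval 0.10 to 1.03, a 1.48-fold ratio) and did not pass the threshold (limma adjusted p = 0.715). The probe was tested only because all HOTAIR arrays were above background, and a filter asking for all 7 arrays removed it. Without EV 2 the difference was 0.44, and with normexp background correction it was 0.13. The normexp offset of 50 exceeds this probe's processed intensities of 16.8 to 49, and it shrinks the difference.

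B4GALNT1 makes GM2 from GM3 and GD2 from GD3. The log2 signal of its probe (chr12:58019955-58020014, minus strand) was 1.11, 0.50, 1.04 and 1.02 in EV and 1.44, 1.56 and 0.95 in HOTAIR. HOTAIR 1 and HOTAIR 2 lay above all EV arrays and HOTAIR 3 among them, while EV 2 lay below the rest. The log2 difference was 0.40 (95% interval -0.08 to 0.88, limma adjusted p = 0.926). Without EV 2 it was 0.26. Without both EV 2 and HOTAIR 3, an alternative chosen after seeing the data, it was 0.44 (95% interval 0.18 to 0.70, limma adjusted p = 0.338). These arrays were the lowest of their groups, so the narrower interval is no support for a difference.

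B3GALT4, which extends GM2 and GD2 with galactose (probe at chr6:33246543-33246601, plus strand), had log2 signals of -2.94, -3.26, -2.76 and -2.66 in EV and -2.34, -2.51 and -2.80 in HOTAIR. HOTAIR 3 lay within the range of EV and the other HOTAIR arrays above it. The log2 difference was 0.35 (95% interval -0.07 to 0.77, limma adjusted p = 0.926). EV 2 was low for ST3GAL5, B4GALNT1, B3GALT4 and UGCG alike, at -0.50, -0.56, -0.47 and -0.67 on the log2 scale from the mean of the other EV arrays. HOTAIR 3 differed from the mean of the other HOTAIR arrays by -0.55, -0.38 and -0.51 for B4GALNT1, B3GALT4 and UGCG. The part of these arrays in the 4 differences was not tested beyond leaving them out.

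ST6GALNAC3 and ST6GALNAC5 add sialic acid to N-acetylgalactosamine and can make the alpha-series ganglioside GD1alpha from GM1b. The ST6GALNAC3 probe at base 723 (chr1:76878040-76878099, plus strand) read -4.70, -4.29, -4.18 and -4.70 in EV and -4.73, -4.35 and -4.14 in HOTAIR. The probe at base 3132 (chr1:77096543-77096602, plus strand) read -2.64, -2.80, -2.96 and -2.59 in EV and -2.72, -2.72 and -2.68 in HOTAIR. The groups overlapped for both probes, which here gave like results. Their log2 differences were 0.06 (95% interval -0.40 to 0.52) and 0.04 (95% interval -0.24 to 0.32), each with a limma adjusted p of 0.993, and both changed sign under some of the other settings. The ST6GALNAC5 probe (chr1:77529022-77529081) was well above background on no array, between -6.16 and -5.48 in EV and between -6.27 and -5.56 in HOTAIR.

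The enzymes around these 10 genes were followed with 5 lists, holding ceramide and sphingomyelin synthesis, lactosylceramide synthesis with its neutral branches, the supply of sialic acid, the other sialyltransferases, and ganglioside breakdown. They hold 70 genes, of which 69 had a probe and 55 were tested, with 69 tested probes. By limma, 0 of the 69 probes passed the adjusted p of 0.05 in either direction, here and under every other setting run, where 0.167% of all tested probes passed. Among the 69, 3 had an unadjusted p under 0.05, where 5.85% of all tested probes had one. Their log2 differences ran from -0.31 to 0.46 with a median of 0.03, and 38 were above 0 and 31 below.

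Among the 13 tested probes for lactosylceramide synthesis and its neutral branches the median log2 difference was 0.07. The extremes were B4GALT5, a lactosylceramide synthase, at -0.17 (95% interval -0.53 to 0.18) and GAL3ST1, the cerebroside sulfotransferase that makes sulfatide, at 0.46 (95% interval 0.05 to 0.88, limma adjusted p = 0.771). Among the 25 probes for ceramide and sphingomyelin synthesis the median was -0.01, from ORMDL1 at -0.28 (95% interval -0.57 to 0.01; its other probe -0.05) to ORMDL3 at 0.20 (95% interval -0.12 to 0.51), both regulators of serine palmitoyltransferase. These lists thus held differences of both signs, and none was called.

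Of the 8 tested probes for sialic acid supply the median was -0.09. NANP, the phosphatase that releases free sialic acid, had the lowest log2 difference, -0.31 (95% interval -0.64 to 0.02, limma adjusted p = 0.889), and SLC17A5, the lysosomal sialic acid exporter, the highest, 0.23 (95% interval -0.03 to 0.50), with 0.12 at its other probe. CMAS, which activates sialic acid for all sialyltransferases, had -0.24 (95% interval -1.02 to 0.55). In ganglioside breakdown the median of 14 probes was 0.03, from SCARB2 at -0.11 to GM2A, the GM2 activator, at 0.41 (95% interval 0.01 to 0.82, limma adjusted p = 0.838), whose other probe had 0.13.

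The 9 tested probes of the other sialyltransferases had a median log2 difference of 0.18, with 7 above 0 and 2 below. They ran from ST3GAL1 at -0.16 (95% interval -0.40 to 0.08) to ST3GAL3 at 0.37 (95% interval -0.33 to 1.07), whose other tested probe had -0.06 (95% interval -0.35 to 0.24). Over the 5 lists the groups did not overlap for 4 of the 69 probes, where 7.70% of all tested probes did not, so the count is no result about the lists. The 4 are named here after their values were seen. ST6GAL1 (0.32, 95% interval 0.01 to 0.63) and ST3GAL6 (0.18) were the higher ones in HOTAIR, and NANP (-0.31) and COL4A3BP, the ceramide transfer protein (-0.18), the lower ones, none of them past the adjusted p.

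**Figure D3:**
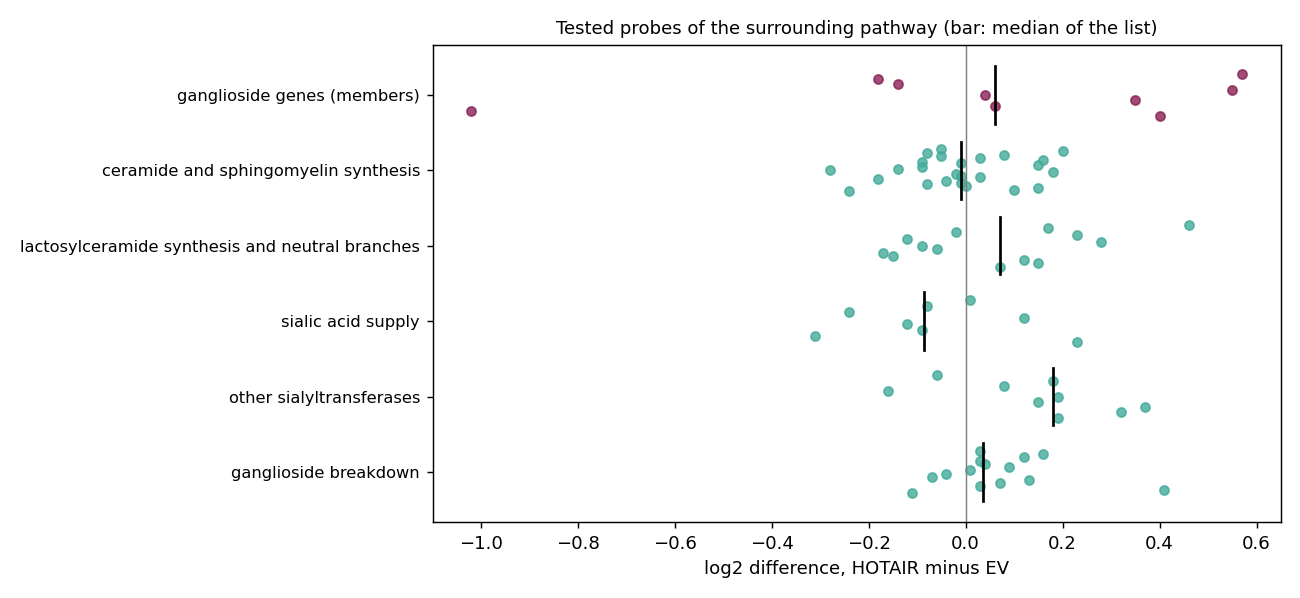
Log2 difference, HOTAIR minus EV (x axis), of each tested probe (points) of the 10 ganglioside genes and of the 5 surrounding lists (y axis), with the median of each list as a bar. The list points lie between -0.31 and 0.46, and the members outside that range are ST8SIA5 (0.55), ST3GAL5 (0.57) and ST8SIA1 base 340 (-1.02), the last chosen on this contrast.

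The genes next to ST8SIA1 on chromosome 12 were compared in the same way. RefSeq on GRCh38.p14 gives the order KCNJ8, ABCC9, CMAS, ST8SIA1, C2CD5, ETNK1 and SOX5. The array annotation places 18 further probes within 1000 kb of the nearer ST8SIA1 probe, of which 10 were tested. By limma, 0 of the 10 passed the adjusted p, 0 had an unadjusted p under 0.05, and the groups overlapped for all of them. Over all tested probes these shares are 0.167%, 5.85% and 7.70%, so that counts of 0 among 10 probes say little. The nearest tested neighbour was C2CD5, named KIAA0528 on the array, 115 kb away, with a log2 difference of -0.31 (95% interval -0.67 to 0.06, limma adjusted p = 0.926). KCNJ8, a potassium channel subunit, had -0.08, the probes of ETNK1, an ethanolamine kinase, had 0.22, -0.14 and 0.08, and those of LDHB, a lactate dehydrogenase subunit, had 0.02 and 0.21. IAPP had 0.61 with a wide interval (95% interval -0.57 to 1.78), PYROXD1 had -0.08 and GOLT1B had -0.09. The probes of ABCC9, GYS2, C12orf39, SLCO1A2, SLCO1B1 and 1 unnamed transcript were too dim to be tested, and the CMAS probe has no position in the annotation.

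**Figure D4:**
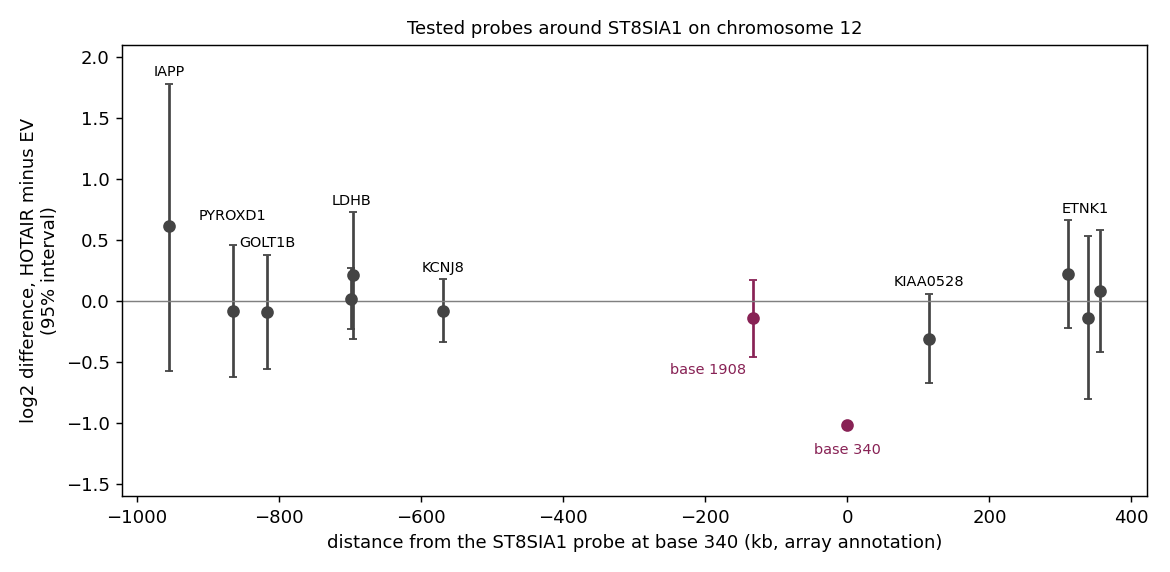
Log2 difference, HOTAIR minus EV (y axis), of the tested probes within 1000 kb of the nearer ST8SIA1 probe against their distance from base 340 in kb (x axis). Bars are 95% intervals from limma, and base 340 is drawn without one. The 10 neighbouring probes have intervals that include 0, as has ST8SIA1 base 1908 at -0.14.

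The genes whose profile over the 7 arrays was most like that of base 340 were found from the mean absolute difference between log2 values, each centred on its own mean. They were CD24, a surface glycoprotein (0.0882), CLDN2, a tight junction claudin (0.091), ACSL5, an acyl-CoA synthetase (0.13), LAYN, a hyaluronan receptor (0.132), and SCG5, a secretory granule chaperone (0.141). The median over all tested probes was 0.514, and the ST8SIA1 probe at base 1908 was at 0.428. The same search from base 1908 gave DUS1L (0.0298), OCIAD1 (0.0327), IPO4 (0.0378), IMPDH2 (0.039) and CHD9 (0.0404). No gene could be on both lists of 5, since the ST8SIA1 probes were 0.428 apart and the listed genes lay within 0.141 and 0.0404 of them. As the 5 genes nearest to base 340 were picked by likeness to a probe chosen on this contrast, their lower values in HOTAIR are a description.

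**Figure D5:**
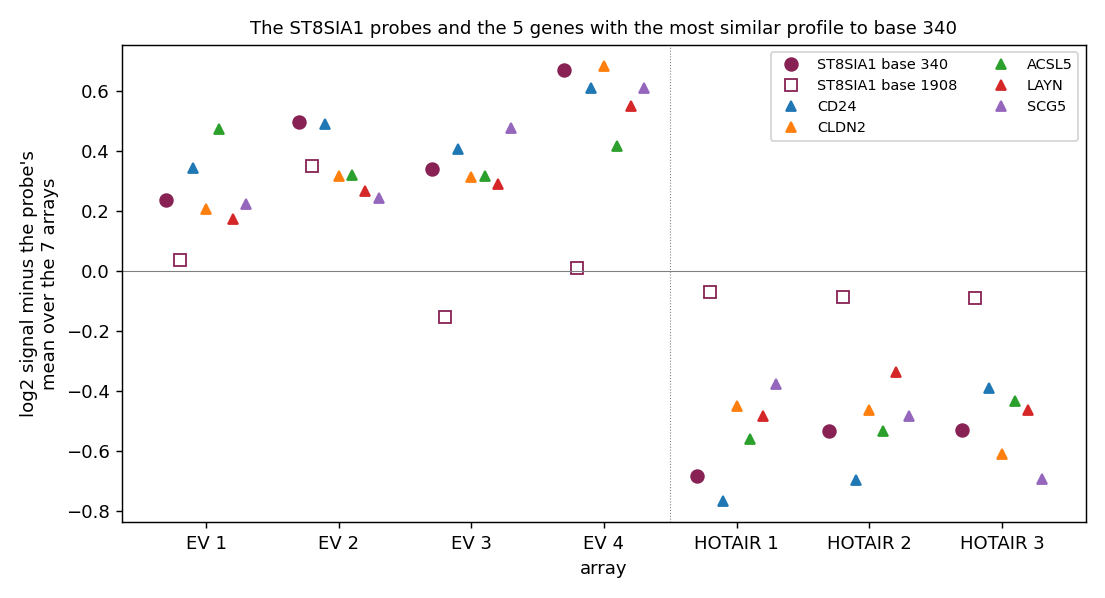
Log2 signal minus the probe's mean over the 7 arrays (y axis) on each array (x axis), for ST8SIA1 base 340 (filled circles), ST8SIA1 base 1908 (open squares) and the 5 genes most like base 340 (triangles). The circles and triangles lie above 0 on the EV arrays and below 0 on the HOTAIR arrays, and the squares lie within 0.2 of 0 on every array but EV 2.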

How the data were processed

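RNA of 7 samples was labelled with Cy3 and hybridised, 1 sample to an array, to Agilent SurePrint G3 Human GE arrays. The authors extracted the images with Agilent Feature Extraction 10.7.3.1, per the labels, and deposited for each spot a processed intensity, background subtracted and with signals too low to use replaced from an error model, beside its raw intensity, local background and flags. A deposited table of 62969 rows holds the same intensity, within 0.6% in 100% of its cells. Here the log2 of the deposited intensity was taken, the 75th percentile of the 58717 non-control spots of the array was subtracted, outlier spots (408 to 600 per array) were left out and spots of a probe were averaged. A probe was tested if well above background, on at least 0.5 of its spots, on every array of at least 1 group. HOTAIR was compared with EV by limma 3.58.1 in R 4.3.3 (lmFit and eBayes, two-sided), with Benjamini-Hochberg adjustment over 20419 probes at 0.05. The fit was tested on simulated data. The rank product and Mann-Whitney U test of the study's methods were not used, the latter because 3 arrays against 4 cannot pass 0.05.

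The text names all member probes, each list's probe with the largest difference in either direction, the genes within 1000 kb of the nearer ST8SIA1 probe and the 5 genes most like each ST8SIA1 probe. The members and lists were chosen with earlier results of these data known. Array annotation is on hg19 and gene order from RefSeq GRCh38.p14. Alternatives were normexp (offset 50), quantile normalization, another percentile, 2 filters, the deposited table, trend and robust moderation, the replicate number as a block, and leaving out arrays. The number of arrays limits the precision. A genome sequence was not used here.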

Additional observations from a re-analysis of the deposited data

Results flagged for a closer look

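The B4GALNT1 signal on EV 2 (0.50) was far from the other 3 EV arrays (1.02 to 1.11). Its gap to the nearest of them was 0.856 of the range of the group, above Dixon's 95% critical value for 4 samples. It was 1 of 13 EV groups examined, and chance alone gives such a gap in about 1 of 20 groups. EV 2 also stood apart over all probes, and the log2 difference of B4GALNT1 without it was 0.26.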

How the results depend on the processing

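The log2 difference of ST8SIA1 base 340, chosen on this contrast, was -1.14 to -0.21 under the 15 alternatives that gave it a value. It was -0.21 with normexp, -1.02 with no filter on dim probes, with trend and robust moderation and without EV 2 and HOTAIR 3 (an alternative chosen after seeing the data), and -1.08 to -0.94 with any 1 of the 7 arrays left out. In these settings the count of member probes under the adjusted p and lower in HOTAIR, which base 340 alone makes up, was 0 in place of 1, and nothing is read from either count. The filter asking for all 7 arrays removed base 340 and ST3GAL5 (count 0). Samples with the same replicate number had correlations of deviations of 0.386, -0.368 and -0.406. With so few arrays these values do not settle whether the numbers pair the samples. With the replicate block base 340 had -0.94, with 0 member probes and 0 of all probes called in either direction. Over all probes 27 were called higher and 7 lower. The counts were 10 and 2 with normexp, 13 and 1 without the filter, 17 and 3 with trend and robust moderation, and 9 to 28 and 0 to 2 over the arrays left out. With the filter for all arrays 16 were higher, and without EV 2 and HOTAIR 3 there was 1 lower. The probe at base 1908 stayed between -0.24 and -0.04 and passed under 0 of 16. ST6GALNAC3 changed sign at base 3132 with quantile normalization (-0.04) and without EV 3 (-0.03; -0.03 to 0.10 over the arrays left out), and at base 723 with normexp (-0.01), quantile normalization (-0.09), the block (-0.02), without EV 1 (-0.02), EV 4 (-0.02) or HOTAIR 3 (-0.08; -0.08 to 0.22 over the arrays left out), and without EV 2 and HOTAIR 3 (-0.02). The other members kept their sign and passed under none of the settings that tested them. With normexp an offset of 50 was added, which is above the processed intensities of base 340 (9.51 to 20.7) and ST3GAL5 (16.8 to 49). A constant larger than the signal shrinks log2 differences, so the normexp values of these probes cannot show whether their differences hold. The bright probes did not shrink, B4GALNT1 (748 to 1730) having 0.42 with normexp and UGCG (3770 to 8720) having -0.22. The cause of the other changes was not tested.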
